A study of Homo sapiens with 14 samples.

Results

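MLL1-KO lines of MDA-MB-231 cells were compared directly with SIN3A+SIN3B-DKO lines of the same cells, in 8 of the 14 RNA-Seq libraries of the study. MDA-MB-231 is an established triple-negative breast cancer cell line. All lines had been edited with CRISPR/Cas9, and the compared libraries were 2 each of MLL1-KO1, MLL1-KO2, SIN3A+SIN3B-DKO1, and SIN3A+SIN3B-DKO2, chosen by their labels alone. The labels give the libraries as untreated, and per the study's methods each line was a mixture of several single-cell KO clones selected with puromycin, so that editing and selection were shared by the lines compared. The 2 parental libraries are given beside the results and entered no test of this comparison.

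MLL1, encoded by KMT2A, is a histone methyltransferase that marks histone H3 on lysine 4 at promoters and enhancers, works in a complex with WDR5, RBBP5, ASH2L, and menin, and binds unmethylated CpG sites through its CXXC domain. SIN3A and SIN3B are the alternative scaffolds of a corepressor complex that carries the deacetylases HDAC1 and HDAC2 and subunits such as SAP30. The study addressed how MLL1 takes part in gene activation by SAP30 and SIN3A/B, and the direct comparison shows at which genes losing MLL1 and losing both SIN3 scaffolds left the RNA at different levels.

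The 8 libraries held between 18415036 and 23162682 reads, recovered from the steps of the deposited values, which add up to 1000000 in each library and were used as transcript levels per length (TPM). Both libraries of a line were counted, since their reads were farther apart than sampling alone gives (chi-square over its degrees of freedom 1.47 for SIN3A+SIN3B-DKO1, the closest pair, and 8.0 for SIN3A+SIN3B-DKO2, the farthest). The labels do not say whether the 2 libraries of a line came from separate cultures. The 10 genes listed as marks of MDA-MB-231 cells, among them VIM, AXL, and CAV1, were all present, the lowest of them TGFBI with 5.72 TPM in 1 library. Of 14 luminal markers, PGR was at 0 in all 8 libraries and ESR1, FOXA1, CDH1, and TFF1 stayed under 1 TPM, while KRT18, KRT8, KRT19, and XBP1 were above 100 TPM in every library and the list summed to between 739 and 1292 TPM. Of 9 blood cell markers 6 stayed under 1 TPM, PTPRC, CD3E, and HBB among them, while CD68, a lysosomal protein of macrophages, had between 159 and 251 TPM, LYZ up to 6.32, and CD14 up to 2.54. Of 8 fibroblast markers 5 stayed under 1 TPM and COL1A1 had between 4.5 and 13.2. Of 7 endothelial markers CDH5, VWF, TEK, and CLDN5 stayed under 1 TPM, and KDR had up to 6.44, PECAM1 up to 3.25, and TIE1 up to 2.06. In bulk RNA, fewer cells with a transcript and less of it per cell cannot be told apart.

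KMT2A, listed under its older symbol MLL, lies at chr11:118307171-118397547 of GRCh37. Its RNA was 17.4 and 15.8 TPM in MLL1-KO1, 25.7 and 27.7 in MLL1-KO2, 42.9 and 44.2 in SIN3A+SIN3B-DKO1, and 43.9 and 55.7 in SIN3A+SIN3B-DKO2, against 56.7 and 49.0 in parental cells. It was lower in every MLL1-KO library than in every SIN3A+SIN3B-DKO library, with a log2 difference of -1.12 (standard error 0.22, adjusted p = 0.0043). The median difference of its neighbours along the chromosome was -0.36, and with this subtracted KMT2A still differed by -0.77 and passed the test. SIN3A RNA was 60.6 and 62.5 TPM in SIN3A+SIN3B-DKO1, 55.1 and 55.2 in SIN3A+SIN3B-DKO2, and between 44.1 and 46.9 in MLL1-KO, so that it was not lower in the libraries labelled SIN3A+SIN3B-DKO. SIN3B RNA was between 43.5 and 50.2 TPM in SIN3A+SIN3B-DKO and between 63.5 and 78.6 in MLL1-KO, without overlap. Its log2 difference of 0.57 (standard error 0.12, adjusted p = 0.0051) fell short of 1.5-fold, but SIN3B was called under quantile normalization (0.64) and median ratio scaling (0.66). SAP30 RNA was between 66.1 and 75.6 TPM in SIN3A+SIN3B-DKO and between 81.1 and 110 in MLL1-KO, also without overlap and short of 1.5-fold. Lack of overlap was common, at 47.2% of all tested genes. RNA levels do not show whether a protein was made, and the study's immunoblots of these lines were not analysed here. SIN3A+SIN3B-DKO below stands for the libraries labelled so.

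Among the 13147 genes tested, 1390 were lower and 698 were higher in MLL1-KO than in SIN3A+SIN3B-DKO, which is 10.6% and 5.31% of the genes tested. A gene was called when limma's adjusted p was under 0.05 and the difference was at least 1.5-fold on the scale of log2(TPM + 0.5), which understates differences of genes with low values. Differences are given throughout as MLL1-KO minus SIN3A+SIN3B-DKO. The median difference of all tested genes was -0.08. Lower genes made up 66.6% of the called genes, and this share depended on scaling, with 1036 lower and 943 higher (52.3% lower) after quantile normalization and 1082 and 881 (55.1%) after median ratio scaling. Under quantile normalization 1034 of the 1390 lower and 693 of the 698 higher genes were still called. The SIN3A+SIN3B-DKO and MLL1-KO libraries did not overlap at 47.2% of all tested genes. A difference of at least 2 on the log2 scale was seen at 162 lower and 98 higher genes.

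**Figure D1:**
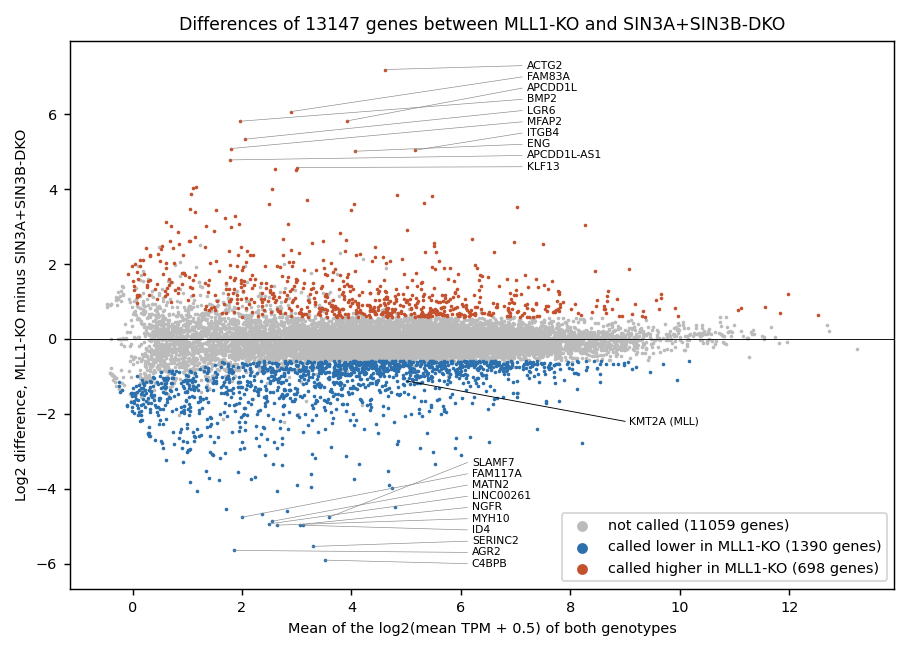
Log2 difference between MLL1-KO and SIN3A+SIN3B-DKO (vertical axis) against the mean level of each gene in both genotypes (horizontal axis), 1 point per tested gene. The labelled genes reach up to 7.19 for ACTG2 and down to -5.91 for C4BPB, and the 1390 called lower genes outnumber the 698 called higher.

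Each MLL1-KO line was also set against each SIN3A+SIN3B-DKO line. MLL1-KO1 had 1974 lower and 818 higher genes against SIN3A+SIN3B-DKO1, and MLL1-KO2 had 1691 lower and 1300 higher genes against SIN3A+SIN3B-DKO2. Called in the same direction in all 4 such comparisons were 948 of the 1390 lower genes and 478 of the 698 higher genes, which is 7.21% and 3.64% of the genes tested. Between the MLL1-KO lines, 943 genes (7.17%) were lower in MLL1-KO1 and 438 (3.33%) were higher. Between the SIN3A+SIN3B-DKO lines, 105 (0.799%) were lower in SIN3A+SIN3B-DKO1 and 134 (1.02%) were higher. The study's supplement lists different guide RNAs for MLL1 but only a single guide RNA for SIN3A and for SIN3B. The pairs of lines may therefore not be equivalent. Of the genes called between the genotypes, 270 of the lower and 150 of the higher also differed between MLL1-KO1 and MLL1-KO2. The parental mean lay nearer to SIN3A+SIN3B-DKO than to MLL1-KO on the log2 scale for 73.9% of the lower and 69.8% of the higher genes, against 57.8% of all genes tested.

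The largest differences toward lower RNA in MLL1-KO were at C4BPB, AGR2, SERINC2, ID4, MYH10, NGFR, LINC00261, MATN2, FAM117A, and SLAMF7. C4BPB encodes the beta chain of the complement regulator C4b-binding protein. It had 83.9, 76.7, 98.8, and 92.7 TPM in the SIN3A+SIN3B-DKO libraries and 0.821, 0.729, 1.11, and 1.28 in the MLL1-KO libraries, a log2 difference of -5.91 (standard error 0.17, adjusted p = 9.7e-08). Parental cells, with 140 and 147 TPM, were on the side of SIN3A+SIN3B-DKO. AGR2 is a protein disulfide isomerase of the endoplasmic reticulum of secretory epithelium. No read of it was found in the 4 MLL1-KO libraries, against 27.5, 34.2, 28.8, and 13.3 TPM in SIN3A+SIN3B-DKO and 161 and 175 in parental cells, and taking 3 reads per library as the limit it was at least 63.7-fold lower in MLL1-KO. SERINC2, which encodes a membrane protein of the serine incorporator family, was between 56.9 and 78.4 TPM in SIN3A+SIN3B-DKO and between 0.790 and 1.05 in MLL1-KO, with parental cells at 47.6 and 43.6.

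**Figure D2:**
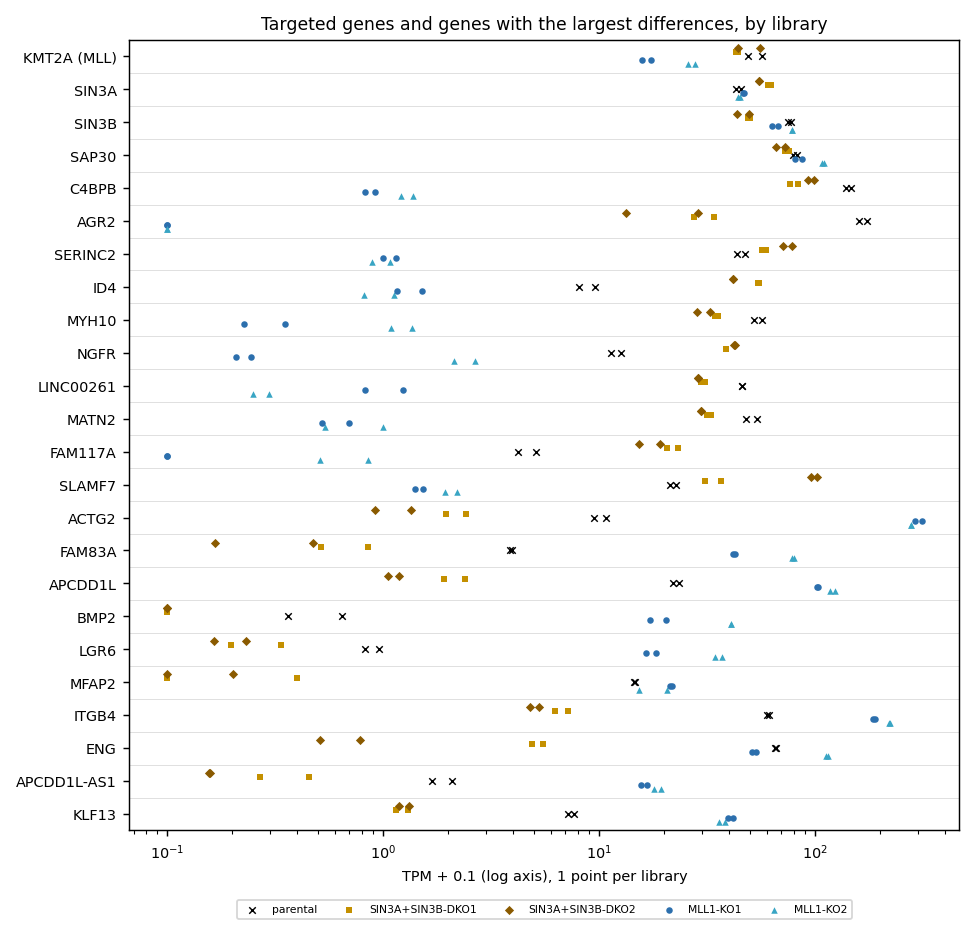
TPM + 0.1 on a log axis in each library for the targeted genes, SAP30, and the genes with the largest differences in each direction, with 1 point per library and a sign for each line. For all 20 of the latter the MLL1-KO and SIN3A+SIN3B-DKO points are apart, and AGR2 sits at 0.1, that is at 0 TPM, in the 4 MLL1-KO libraries.

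ID4, NGFR, FAM117A, and SLAMF7, like SERINC2, were above parental in SIN3A+SIN3B-DKO. ID4, an inhibitor of basic helix-loop-helix transcription factors, had 54.3, 55.2, 41.9, and 41.6 TPM in SIN3A+SIN3B-DKO, 9.47 and 7.99 in parental cells, and between 0.718 and 1.42 in MLL1-KO. NGFR, the p75 neurotrophin receptor, had between 38.6 and 42.6 TPM in SIN3A+SIN3B-DKO and 12.6 and 11.3 in parental cells, and it was lower in MLL1-KO1 (0.108 and 0.146) than in MLL1-KO2 (2.03 and 2.56). FAM117A had between 15.2 and 23.3 TPM in SIN3A+SIN3B-DKO and 4.12 and 5.02 in parental cells, with no read in MLL1-KO1 and 0.750 and 0.413 TPM in MLL1-KO2. SLAMF7, a receptor of lymphocytes, differed between the SIN3A+SIN3B-DKO lines themselves, with 30.8 and 36.8 TPM in SIN3A+SIN3B-DKO1 and 102 and 95.8 in SIN3A+SIN3B-DKO2, and was between 1.31 and 2.10 in MLL1-KO. NGFR and FAM117A lie on a stretch of chromosome 17 with a lower running median, given below, and their log2 differences of -4.95 and -4.76 became -4.32 and -4.13 once it was subtracted. MYH10, LINC00261, and MATN2 were below parental in both genotypes. MYH10, a non-muscle myosin heavy chain, was 32.7 ± 3.14 TPM (SD, n = 4) in SIN3A+SIN3B-DKO and 0.656 ± 0.551 in MLL1-KO. LINC00261, a long noncoding RNA, was 29.5 ± 0.991 and 0.554 ± 0.470 TPM, and MATN2, a matrilin of the extracellular matrix, was 30.9 ± 1.58 and 0.590 ± 0.220.

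The largest differences toward higher RNA in MLL1-KO were at ACTG2, FAM83A, APCDD1L, BMP2, LGR6, MFAP2, ITGB4, ENG, APCDD1L-AS1, and KLF13. ACTG2, the gamma actin of smooth muscle, had 291, 313, 278, and 278 TPM in the MLL1-KO libraries and 1.86, 2.32, 1.25, and 0.820 in the SIN3A+SIN3B-DKO libraries. Its log2 difference of 7.19 (standard error 0.26, adjusted p = 2.4e-07) was the largest in the table, and parental cells lay between, at 10.7 and 9.44 TPM. BMP2, a bone morphogenetic protein, had 17.1 and 20.4 TPM in MLL1-KO1, 40.8 and 40.7 in MLL1-KO2, no read in the 4 SIN3A+SIN3B-DKO libraries, and 0.265 and 0.544 TPM in parental cells. It was at least 260-fold higher in MLL1-KO, with 3 reads per library as the limit. FAM83A had 42.7, 41.7, 78.2, and 80.4 TPM in MLL1-KO and at most 0.756 in SIN3A+SIN3B-DKO. LGR6, a receptor for R-spondins, had between 16.5 and 37.1 TPM in MLL1-KO and at most 0.237 in SIN3A+SIN3B-DKO, and both FAM83A and LGR6 were lower in MLL1-KO1 than in MLL1-KO2.

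APCDD1L and the antisense transcript beside it, APCDD1L-AS1, moved together, at 112 ± 11 against 1.54 ± 0.636 TPM and 17.4 ± 1.63 against 0.159 ± 0.140 (SD, n = 4). Whether reads were counted by strand is not given in the sources used here, so reads of the 2 genes cannot be told apart. ITGB4, the integrin beta chain of hemidesmosomes, had 190, 186, 221, and 224 TPM in MLL1-KO, 7.13, 6.18, 5.16, and 4.69 in SIN3A+SIN3B-DKO, and 59.9 and 61.2 in parental cells. ENG, the TGF-beta coreceptor endoglin, had 53.4 and 51.4 TPM in MLL1-KO1, 115 and 113 in MLL1-KO2, 5.41 and 4.79 in SIN3A+SIN3B-DKO1, and 0.409 and 0.683 in SIN3A+SIN3B-DKO2, so that both pairs of lines differed within themselves. MFAP2, a glycoprotein of elastic microfibrils, had between 15.3 and 21.7 TPM in MLL1-KO and 14.6 and 14.5 in parental cells, and at most 3 reads in each SIN3A+SIN3B-DKO library. KLF13, a zinc finger transcription factor, was 38.8 ± 2.33 TPM in MLL1-KO and 1.14 ± 0.0860 in SIN3A+SIN3B-DKO.

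The promoters of the leading genes are shown because the CXXC domain of MLL1 binds CpG. For C4BPB and AGR2, lower in MLL1-KO, and ACTG2 and LGR6, higher in MLL1-KO, the 250 bases before the transcription start were taken from RefSeq on GRCh38.p14, 5′ to 3′ on the strand of the gene, with each CG in capitals. They lie at chr1:207088610-207088859 (plus strand), chr7:16805000-16805249 (minus strand), chr2:73892758-73893007 (plus strand), and chr1:202193549-202193798 (plus strand).
C4BPB: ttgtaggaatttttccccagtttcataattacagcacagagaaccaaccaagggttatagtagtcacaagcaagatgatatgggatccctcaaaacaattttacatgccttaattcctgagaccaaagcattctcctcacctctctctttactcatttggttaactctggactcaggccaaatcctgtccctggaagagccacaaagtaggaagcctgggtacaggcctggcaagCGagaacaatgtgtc
AGR2: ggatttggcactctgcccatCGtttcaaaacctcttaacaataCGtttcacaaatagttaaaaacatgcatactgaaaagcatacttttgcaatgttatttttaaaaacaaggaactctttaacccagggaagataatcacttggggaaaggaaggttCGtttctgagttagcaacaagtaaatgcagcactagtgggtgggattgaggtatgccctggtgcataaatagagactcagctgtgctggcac
ACTG2: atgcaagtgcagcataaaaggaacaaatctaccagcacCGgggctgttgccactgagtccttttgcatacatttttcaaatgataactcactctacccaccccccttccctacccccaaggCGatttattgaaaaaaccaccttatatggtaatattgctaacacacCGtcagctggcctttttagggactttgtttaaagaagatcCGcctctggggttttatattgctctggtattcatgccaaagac
LGR6: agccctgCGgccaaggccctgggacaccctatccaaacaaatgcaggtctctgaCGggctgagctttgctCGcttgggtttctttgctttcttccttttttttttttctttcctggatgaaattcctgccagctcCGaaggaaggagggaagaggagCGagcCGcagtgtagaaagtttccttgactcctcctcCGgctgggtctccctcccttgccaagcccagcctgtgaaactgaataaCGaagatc
These promoters held 1, 3, 4, and 8 CG. Those of other leading genes ranged from 2 CG for SERINC2 to 34 for ID4 and KLF13. A CG occurs equally on both strands, and 99.2% of the promoters of tested genes held at least 1. Over the 10050 of the 13147 tested genes with a promoter in the table, the median was 21 CG, beside 20 for 1059 lower genes and 21 for 514 higher genes. Promoters with at most 5 CG made up 8.4% of all, 13.3% of those of lower genes, and 15.4% of those of higher genes. Matches of letters are a description and were not tested.

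The study followed PDGFB, PDGFD, CLDN1, RDX, ADM2, and NOTCH3 as genes of angiogenesis and motility. PDGFB, a platelet-derived growth factor, had 3.15 and 3.01 TPM in MLL1-KO1 with 1.68 and 1.83 in MLL1-KO2, against 1.62 and 1.83 in parental cells and 0.103, 0.108, 0.381, and 0.141 in SIN3A+SIN3B-DKO. It was higher in MLL1-KO by 2.07 on the log2 scale (standard error 0.35, adjusted p = 0.0019), with at most 11 reads in a SIN3A+SIN3B-DKO library. PDGFD, the D chain of the family, had the opposite direction. Its RNA was 1.08 and 1.15 TPM in MLL1-KO1, 2.26 and 3 in MLL1-KO2, and between 3.57 and 5.04 in SIN3A+SIN3B-DKO, all under the 8.32 and 8.15 of parental cells. The difference of -1.03 (standard error 0.35, adjusted p = 0.0497) stood just inside the threshold. PDGFD lies on chromosome 11 with neighbours at a median of -0.37, and with this subtracted its difference of -0.67 no longer passed. Its call was lost under 15 of 26 other settings. CLDN1, a claudin of tight junctions, had 0.462, 0.180, 0.257, and 0.242 TPM in MLL1-KO and 2.86, 2.47, 0.998, and 1.51 in SIN3A+SIN3B-DKO, a difference of -1.59 (standard error 0.41, adjusted p = 0.017), with parental cells at 10.2 and 11. Under quantile normalization its difference was -1.29 and just missed the threshold (adjusted p = 0.0523).

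RDX did not pass the test, and ADM2 and NOTCH3 had too little RNA to be tested. RDX, the membrane-actin linker radixin, had 45 and 48.8 TPM in MLL1-KO1 with 71.9 and 72.1 in MLL1-KO2, against 61.7 to 74.4 TPM in SIN3A+SIN3B-DKO, so that MLL1-KO1 lay below that range and MLL1-KO2 inside it. Both genotypes were below the 140 and 137 TPM of RDX in parental cells. ADM2 and NOTCH3 were under 1 TPM in all 8 libraries. In parental cells ADM2 had 3.808 and 3.676 TPM and NOTCH3 had 1.516 and 1.521, above both genotypes. ADM2 had between 0.518 and 0.932 TPM in MLL1-KO and between 0.341 and 0.896 in SIN3A+SIN3B-DKO. NOTCH3 had between 0.0860 and 0.311 and between 0.406 and 0.551, without overlap, as was the case for 47.2% of the genes tested. Of the genes that the study took as corepressed by SAP30 and SIN3A/B, ARTN had a difference of 0.53 (adjusted p = 0.16), IPO13 of -0.06 (adjusted p = 0.74), and HSPA6 of -0.75 (adjusted p = 0.17). Each of these 3 was above parental in both genotypes as a mean, IPO13 for example at 40.5 ± 3.29 and 42.1 ± 2.04 TPM (SD, n = 4) against 23.7 in parental cells.

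Of the 21 SIN3 complex subunits only HDAC1 was called, and of the 17 MLL and COMPASS subunits tested only KMT2A, the edited gene. Both were lower, at 4.8% and 5.9% of their lists, against 10.6% of all genes, of which 5.31% were higher. SIN3B was called higher under quantile normalization, as given above. HDAC1 had 252, 250, 245, and 250 TPM in SIN3A+SIN3B-DKO and 161, 161, 134, and 137 in MLL1-KO, a difference of -0.75 (standard error 0.08, adjusted p = 0.0001), with parental cells between at 195 and 204. The median of the SIN3 list was -0.09 and that of the COMPASS list 0.03. HOX genes are classical targets of MLL1. Of 46 HOX and TALE genes 14 had enough RNA to test, and HOXB9 and HOXD1 were lower and PBX3 was higher in MLL1-KO. These were 14.3% and 7.1%, near the 10.6% and 5.31% of all genes. The list median of -0.05 became 0.08 under quantile normalization. HOXD1 had between 1.83 and 2.77 TPM in MLL1-KO and between 5.71 and 6.14 in SIN3A+SIN3B-DKO, where it was close to the 7.11 and 6.87 of parental cells. HOXB9 was lower by 1.70 on the log2 scale, but lies on chromosome 17 with neighbours at -0.62, and with these subtracted its difference was still -1.08 and did not pass (adjusted p = 0.0737). PBX3, a TALE partner of HOX proteins, had between 28.7 and 40.4 TPM in MLL1-KO and between 18.7 and 21.7 in SIN3A+SIN3B-DKO.

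Of 24 angiogenic ligands tested, 4 were lower and 5 were higher in MLL1-KO, against 10.6% and 5.31% of all genes, and 15 were not called, with a median of -0.05 that became 0.02 under quantile normalization. PGF, placental growth factor, had 103, 104, 96.6, and 93.8 TPM in MLL1-KO and 36.5, 35.1, 32.3, and 31.6 in SIN3A+SIN3B-DKO, a difference of 1.54 (standard error 0.08, adjusted p = 2.4e-06). VEGFA, the main vascular endothelial growth factor, was 230 ± 13.9 TPM in MLL1-KO and 119 ± 12.1 in SIN3A+SIN3B-DKO (SD, n = 4), and EFNB2, the ligand ephrin B2, was 75.8 ± 21.1 and 32.6 ± 2.07. PDGFA and PDGFB completed the higher members. The lower members were IL8, PDGFD, CYR61, and CTGF. IL8, the chemokine CXCL8, had 19.1, 19.3, 27.1, and 26.7 TPM in MLL1-KO, near the 18.9 and 17.8 of parental cells, and 98.5, 98.8, 75.8, and 52.5 in SIN3A+SIN3B-DKO. The matricellular proteins CYR61 and CTGF, targets of YAP and TEAD, were 516 ± 17.7 against 961 ± 59.8 and 423 ± 25.1 against 734 ± 21.7 TPM.

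Of 10 angiogenesis inhibitors tested, ISM1, THBS1, and COL18A1 were higher and SEMA3F was lower in MLL1-KO (list median 0.26). Of all genes tested, 5.31% were higher and 10.6% were lower. THBS1, the matrix protein thrombospondin 1, was 978 and 903 TPM in MLL1-KO1 with 1113 and 1090 in MLL1-KO2, against 251, 236, 301, and 343 in SIN3A+SIN3B-DKO and 381 and 371 in parental cells. COL18A1, whose protein is the source of endostatin, was 66.4 ± 14.5 and 19.1 ± 0.761 TPM, and SEMA3F, a repulsive semaphorin, was 1.34 ± 0.259 and 5.72 ± 0.432 (SD, n = 4). SEMA3F was far below parental cells, at 40.1 and 41.4 TPM, in both genotypes. Of 8 Notch genes tested, NOTCH1 and the target HES1 were higher in MLL1-KO and none was lower, against 5.31% and 10.6% of all genes. NOTCH1 had 28.6, 24.8, 34.5, and 34.5 TPM in MLL1-KO and between 11.1 and 13.4 in SIN3A+SIN3B-DKO. HES1 had 47.1 and 47.8 TPM in MLL1-KO1 with 28.3 and 26.2 in MLL1-KO2, against 14.7 to 19.0 in SIN3A+SIN3B-DKO and 42.4 and 46.7 in parental cells.

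Mesenchymal state genes were called higher most often of the 31 lists examined, at 11 of 19 against 5.31% of all genes, with a list median of 0.83. COL6A3 and COL6A1, chains of collagen VI, led the list. COL6A1 had 90.1, 89.6, 86.4, and 87.8 TPM in MLL1-KO and 11, 10.7, 12.4, and 11.1 in SIN3A+SIN3B-DKO, a difference of 2.92 (standard error 0.10, adjusted p = 1.2e-07). COL6A3 had 85.6 and 81.3 TPM in MLL1-KO1, 35.5 and 36.8 in MLL1-KO2, and between 3.57 and 4.50 in SIN3A+SIN3B-DKO. TNC, the matrix glycoprotein tenascin C, was 314 ± 97.4 TPM in MLL1-KO and 49.8 ± 1.93 in SIN3A+SIN3B-DKO (SD, n = 4), with 18.8 and 17.8 in parental cells. The other higher members were PRRX1, SNAI1, PLAUR, SNAI2, CD44, COL1A1, COL5A1, and ITGA5, with differences from 0.74 for ITGA5 to 1.95 for PRRX1. SNAI1, SNAI2, and PRRX1 are transcription factors of the mesenchymal state, whereas VIM, FN1, ZEB1, and ZEB2 had differences of 0.22, 0.03, 0.19, and 0.14 and were not called. LOXL2, a lysyl oxidase, was the 1 lower member, at 228 ± 19.8 against 348 ± 22.9 TPM, and was under 1.5-fold under quantile normalization (-0.57 from -0.61).

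Of 21 integrin and laminin genes tested, 10 were higher and 3 were lower in MLL1-KO, with a median of 0.51. These were 47.6% and 14.3%, against 5.31% and 10.6% of all genes. Beside ITGB4, the higher members held ITGA6, its partner chain, and LAMB3, the beta chain of the laminin of hemidesmosomes. LAMA3, the alpha chain of that laminin, had the opposite direction, at 4.10 ± 0.533 TPM in MLL1-KO and 11.3 ± 1.55 in SIN3A+SIN3B-DKO (SD, n = 4). ITGB3, a beta chain of receptors for RGD ligands, was lower too, with 0.902, 0.916, 1.06, and 0.967 TPM against 14.4, 14.5, 7.94, and 7.19. ITGB2, the beta chain of leukocyte integrins, was 16.0 ± 2.85 against 39.9 ± 1.35 TPM. ITGA10 was higher in 3 of the 4 comparisons of single lines, with 9.51 and 10.0 TPM in MLL1-KO1 with 32.9 and 36.2 in MLL1-KO2.

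Genes of metalloproteinases and the urokinase system were called higher more often than lower. Of 19 metalloproteinase, TIMP, and urokinase genes tested, 5 were higher and 1 was lower in MLL1-KO (median 0.50). That is 26.3% and 5.3%, against 5.31% and 10.6% of all genes. MMP14, a membrane-bound matrix metalloproteinase, was 1194 ± 293 TPM in MLL1-KO and 551 ± 35 in SIN3A+SIN3B-DKO (SD, n = 4), with 425 and 417 in parental cells. ADAM19 had 240, 239, 192, and 200 TPM in MLL1-KO against 41.2 to 45.7 in SIN3A+SIN3B-DKO, a difference of 2.32 (standard error 0.10, adjusted p = 7.9e-07). ADAM8, the urokinase PLAU, and its receptor PLAUR were the others, with differences of 1.60, 1.02, and 1.20. MMP24 was lower, with at most 0.311 TPM in MLL1-KO and between 3.79 and 6.85 in SIN3A+SIN3B-DKO.

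Of 21 epithelial junction and keratin genes tested, 9 were lower, 3 were higher, and 9 were not called, against 10.6% and 5.31% of all genes, with a median of -0.52. CLDN4, CLDN1, and CLDN7 are claudins, OCLN is another tight junction protein, PKP2 and DSP belong to desmosomes, and KRT8 and KRT80 are keratins. OCLN had 2.15 and 2.16 TPM in MLL1-KO1, 0.831 and 0.804 in MLL1-KO2, and 8, 7.92, 8.82, and 8.04 in SIN3A+SIN3B-DKO, the last 4 close to the 8.21 and 7.92 of parental cells. CLDN4 had between 0.956 and 1.91 TPM in MLL1-KO, 30.8 and 30.3 in SIN3A+SIN3B-DKO1, and 8.54 and 5.39 in SIN3A+SIN3B-DKO2. The higher members were KRT17, KRT7, and the plakophilin PKP3. KRT7 had 483 and 490 TPM in MLL1-KO1 with 229 and 221 in MLL1-KO2, against 98.9, 95.4, 134, and 129 in SIN3A+SIN3B-DKO. Among 9 luminal markers tested, AGR2 and KRT8 were lower (22.2%, against 10.6% of all genes) and the median was -0.31. Among 3 blood cell markers LYZ was higher, at 5.86 ± 0.462 against 1.96 ± 0.394 TPM (SD, n = 4). Of 2 fibroblast markers COL1A1 was higher. None of the 3 endothelial markers tested was called. The summed level of the fibroblast list was 10.4 to 15.0 TPM in MLL1-KO and 6.35 to 7.84 in SIN3A+SIN3B-DKO, while PDGFRA, DCN, COL3A1, and FAP stayed under 1 TPM and THY1 was at 0 in all 8 libraries.

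**Figure D3:**
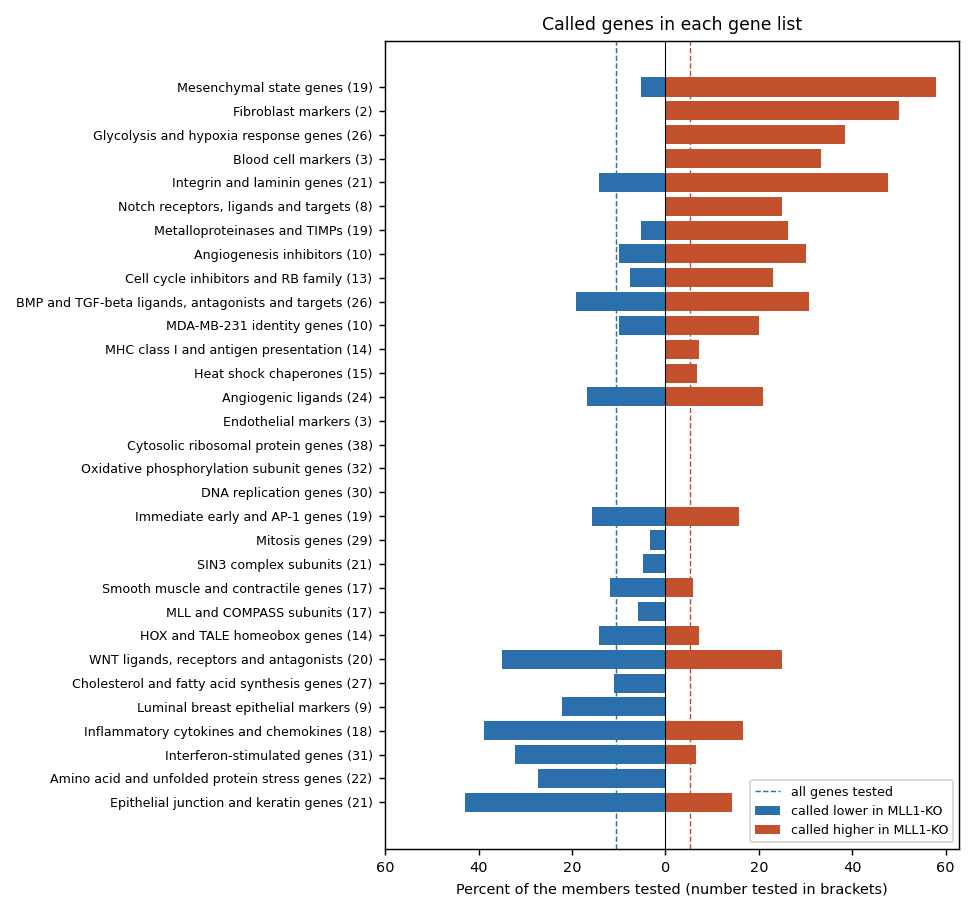
Percent of the tested members of each gene list called lower (bars to the left) and higher (bars to the right) in MLL1-KO, with the number tested in brackets and dashed lines at the 10.6% and 5.31% of all genes tested. Mesenchymal, glycolysis, and integrin lists extend to the right and epithelial junction, interferon, and cytokine lists to the left.

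Ligands, antagonists, and targets of BMP and TGF-beta signaling were called in both directions, 5 of 26 lower and 8 higher, with a median of 0.04. That is 19.2% and 30.8%, against 10.6% and 5.31% of all genes. Lower were ID4, GDF15, INHBB, FST, and TGFB2. INHBB, a subunit of activin B, had 165, 159, 175, and 164 TPM in SIN3A+SIN3B-DKO, 40.8 and 39.5 in MLL1-KO1, with 8.39 and 8.87 in MLL1-KO2, and FST, the activin antagonist follistatin, was 158 ± 11.6 against 21.7 ± 7.60 TPM (SD, n = 4). GDF15, a stress-responsive ligand, had between 11.2 and 41.5 TPM in SIN3A+SIN3B-DKO and between 0.716 and 1.45 in MLL1-KO. TGFB2 was 63.2 ± 1.18 TPM in SIN3A+SIN3B-DKO, near the 71.0 and 66.4 of parental cells, and 15.1 ± 2.50 in MLL1-KO. Higher were BMP2, ENG, TGFBI, SMAD7, BMP4, BMP1, ID1, and TGFB1. TGFBI, a matrix protein induced by TGF-beta, had 142, 137, 170, and 173 TPM in MLL1-KO, 5.83 and 5.72 in SIN3A+SIN3B-DKO1, 17.7 and 19.8 in SIN3A+SIN3B-DKO2, and 32.3 and 35.5 in parental cells.

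WNT genes were also split, with 7 of 20 lower and 5 higher in MLL1-KO, against 10.6% and 5.31% of all genes. The list median was -0.23. WNT9A had 26.6, 20.9, 34.5, and 33.2 TPM in MLL1-KO and at most 1.10 in SIN3A+SIN3B-DKO, whereas WNT5A had at most 1.32 TPM in MLL1-KO and between 7.55 and 9.62 in SIN3A+SIN3B-DKO. WNT5B and the receptor FZD8 were higher, at 65.1 ± 2.80 against 22.6 ± 2.70 and 90.4 ± 11.9 against 37.9 ± 6.2 TPM (SD, n = 4). AXIN2 and LEF1, common targets of beta-catenin, were higher by 1.20 and 0.97 on the log2 scale. The coreceptor LRP5 had 95.5, 95.8, 102, and 96.7 TPM in SIN3A+SIN3B-DKO, 42.4 and 41.1 in MLL1-KO1, with 14.6 and 14.5 in MLL1-KO2, against 175 and 165 in parental cells. WNT10B, WNT3, DKK3, DKK1, and LGR4 were the other lower members.

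Of 17 smooth muscle and contractile genes tested, ACTG2 was the 1 higher member, and TAGLN and CNN1 were lower, shares of 5.9% and 11.8% that were near the 5.31% and 10.6% of all genes, with a median of -0.02. TAGLN, an actin-binding protein, had 86.6, 83.8, 61.3, and 65.5 TPM in SIN3A+SIN3B-DKO, 10.6 and 9.68 in MLL1-KO1, with 30.2 and 28.5 in MLL1-KO2. Its neighbours on chromosome 11 had a median of -0.39, and its difference of -2.05 became -1.67 without it. CNN1, calponin, had at most 2 reads in each MLL1-KO library and at most 21 in SIN3A+SIN3B-DKO. ACTA2, the alpha actin of smooth muscle, had a difference of -0.48 and was not called.

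Inflammatory cytokines were lower at 7 of 18 and higher at 3, with a median of -0.68. The shares were 38.9% and 16.7%, against 10.6% and 5.31% of all genes. IL24 had 146, 166, 138, and 94.0 TPM in SIN3A+SIN3B-DKO, 7.5 and 6.67 in MLL1-KO1, with 22.8 and 22.7 in MLL1-KO2, beside 6.68 and 4.69 in parental cells. IL6 was 12.8 ± 2.91 against 2.64 ± 1.54 TPM (SD, n = 4), but lies on chromosome 7 with neighbours at -0.78, and with these subtracted its difference went from -2.18 to -1.41 and did not pass (adjusted p = 0.0667). TNFSF10, IL32, IL11, and CSF1 were also lower. CSF3, a granulocyte growth factor, had 32.5, 31.3, 36.2, and 43.9 TPM in MLL1-KO and 1.53, 1.61, 1.41, and 0.274 in SIN3A+SIN3B-DKO, where the first 3 libraries were close to the 1.57 and 1.62 of parental cells. IL1B and the chemokine CXCL1 were higher too, IL1B with 13.8 and 20.3 TPM in MLL1-KO1 with 3.35 and 3.25 in MLL1-KO2 against at most 1.81.

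Interferon-stimulated genes were lower at 10 of 31 and higher at 2, with a median of -0.34. The shares were 32.3% and 6.5%, against 10.6% and 5.31% of all genes. IFI27 had 0.941 and 0.764 TPM in MLL1-KO1, 4.08 and 2.56 in MLL1-KO2, 41.3 and 45.8 in SIN3A+SIN3B-DKO1, and 30.2 and 23.8 in SIN3A+SIN3B-DKO2. OAS1, an RNA sensor, was 1.72 ± 1.07 against 11.2 ± 1.29 TPM (SD, n = 4), with MLL1-KO2 below MLL1-KO1, the order opposite to that of IFI27. MX1, MX2, OAS3, OASL, IFI6, IFIT2, IFIT3, and IFITM2 were also lower. IRF9, a subunit of the factor that drives these genes, and DDX58, the RNA sensor RIG-I, were higher by 0.86 and 0.73 on the log2 scale. STAT2 had a difference of -0.22 and was not called. Of 14 genes of MHC class I and antigen presentation, 1 was higher (7.1%) and 0 were lower, against 5.31% and 10.6% of all genes. The median of these 14 was -0.01, or 0.09 under quantile normalization.

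**Figure D4:**
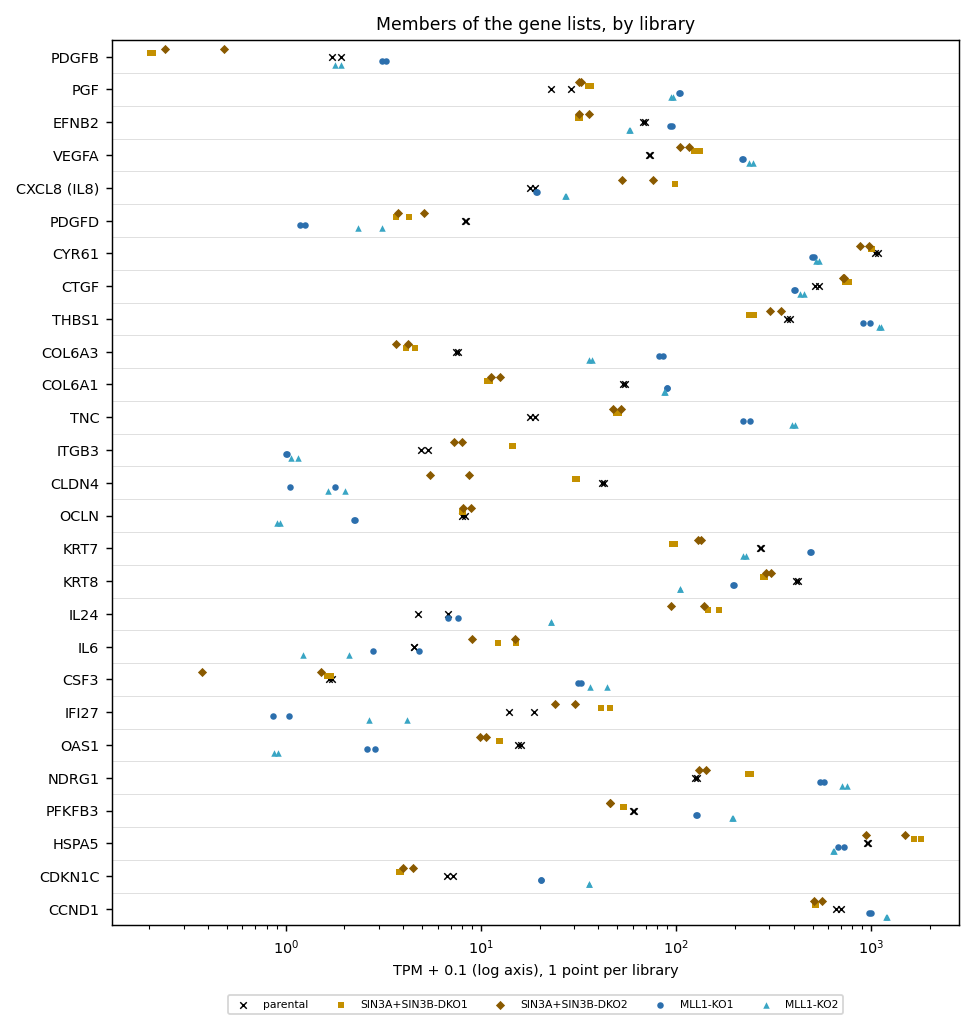
TPM + 0.1 on a log axis in each library for named members of the gene lists, with 1 point per library and a sign for each line, parental as crosses. MLL1-KO points lie to the right for PGF, THBS1, COL6A1, and NDRG1 and to the left for OCLN, IL24, and IFI27, and the signs of the lines are apart for KRT7, CLDN4, and COL6A3.

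Glycolysis and hypoxia response genes were higher at 10 of 26 (38.5%, against 5.31% of all genes) and lower at none, with a median of 0.39. TPI1 and GAPDH are glycolytic enzymes, PFKFB3 and PFKFB4 set the rate of glycolysis, and LDHA makes lactate. TPI1, GAPDH, and P4HA2 were each called in only 2 of the 4 comparisons of single lines, and BNIP3 and CA9 in 3. The differences of this list, those of TPI1 and GAPDH among them, are given without the neighbours subtracted. PFKFB3 had 127, 126, 192, and 195 TPM in MLL1-KO and 54.2, 53.2, 45.7, and 45.9 in SIN3A+SIN3B-DKO, with 60.9 and 60.3 in parental cells. The hypoxia-responsive NDRG1 had 544, 572, 706, and 752 TPM in MLL1-KO, 234 and 243 in SIN3A+SIN3B-DKO1, and 142 and 131 in SIN3A+SIN3B-DKO2. P4HA1 and P4HA2, which hydroxylate collagen, and BNIP3 were higher by 1.18, 0.60, and 0.77. CA9, a carbonic anhydrase induced by hypoxia, was called with a difference of 2.36 (standard error 0.70, adjusted p = 0.030), although its libraries overlapped, with 9.63 and 12.3 TPM in MLL1-KO1, 2.38 and 3.40 in MLL1-KO2, 2.42 and 1.67 in SIN3A+SIN3B-DKO1, and 0.0764 and 0.0781 in SIN3A+SIN3B-DKO2. SLC2A1, HK2, and PGK1 had differences of 0.11, -0.53, and 0.36 and were not called.

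Of 22 genes of amino acid and unfolded protein stress, 6 were lower and none higher, with a median of -0.19. The lower members were 27.3% of the list, against 10.6% of all genes, of which 5.31% were higher. Those called were HSPA5, HSP90B1, DNAJB9, and SDF2L1, which are chaperones and helpers of the endoplasmic reticulum, and CHAC1 and DDIT3. HSPA5 had 675, 724, 638, and 646 TPM in MLL1-KO, 1654, 1792, and 1485 in the first 3 SIN3A+SIN3B-DKO libraries, and 940 in the second library of SIN3A+SIN3B-DKO2, which was close to the 945 and 957 of parental cells. The amino acid synthesis genes ASNS, PSAT1, and PHGDH had differences of -0.02, -0.16, and 0.10. Of 15 heat shock chaperones HSPA1A was the 1 called (6.7%), higher at 3.80 ± 0.634 against 1.08 ± 0.103 TPM (SD, n = 4). It shares nearly all of its sequence with HSPA1B, so that the counting could have split its reads. The list's median was 0.01, or -0.19 under quantile normalization.

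Of 19 genes that act early after growth stimuli, 3 were lower and 3 higher (15.8% each, against 10.6% and 5.31% of all genes), with a median of 0.20. DUSP1, a phosphatase of MAP kinases, ATF3, and FOSL2 were lower, DUSP1 with 20.7, 20.7, 11.3, and 13.5 TPM against 78.2, 82.5, 60.3, and 49.0. JUN, IER2, and EGR3 were higher, JUN at 253 ± 25 against 138 ± 3.62 TPM (SD, n = 4). Of 13 cell cycle inhibitors and RB family genes, CDKN1C, CDKN1A, and CCND1 were higher and CDKN2C was lower, with a median of 0.07. That is 23.1% and 7.7%, against 5.31% and 10.6% of all genes. CDKN1C, the inhibitor p57, had 20.3, 20.1, 35.5, and 35.5 TPM in MLL1-KO and between 3.71 and 4.37 in SIN3A+SIN3B-DKO, and CCND1, cyclin D1, was 1090 ± 121 and 525 ± 21.3 TPM. CDKN2C was under 1.5-fold under quantile normalization (-0.54 from -0.61).

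Genes of DNA replication, oxidative phosphorylation, ribosomal proteins, and mitosis differed little. None of 30 DNA replication genes, 32 oxidative phosphorylation subunits, and 38 cytosolic ribosomal protein genes was called, with medians of -0.01, -0.05, and 0.14. Of 29 mitosis genes only ANLN was called, with a median of -0.12, and with its neighbours on chromosome 7 (-0.60) subtracted its difference went from -0.93 to -0.33. Of 27 genes of cholesterol and fatty acid synthesis, 3 were lower, or 11.1%, near the 10.6% of all genes. SC5DL was among them, lower by 0.97 on the log2 scale. The list median was -0.31, or -0.26 under quantile normalization, and none of the 3 was called with the neighbours subtracted. Of the 10 MDA-MB-231 identity genes, MET was lower and TGFBI and CD44 were higher, against 10.6% and 5.31% of all genes.

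Lower genes gathered on stretches of several chromosomes, and those described here are not all of them. Over the first 60 Mb of chromosome 7 (GRCh37), 89 of 204 tested genes were lower and 13 were higher, and 81.4% had a difference below 0. The median difference was -0.56, with -0.57 for MLL1-KO1 and -0.53 for MLL1-KO2, and both genotypes departed from parental, MLL1-KO by a median of -0.26 and SIN3A+SIN3B-DKO by 0.27. Between 40 and 60 Mb of chromosome 17, 59 of 188 genes were lower and 19 were higher, and the median was -0.37. The higher genes were 10.1% of this stretch, also above the 5.31% of all genes. Here SIN3A+SIN3B-DKO differed from parental by a median of 0.01 and MLL1-KO by -0.39. Between 80 and 140 Mb of chromosome 11, which holds KMT2A, PDGFD, RDX, and TAGLN, 48 of 192 genes were lower and 5 were higher. The lines were apart there, with medians of -0.63 for MLL1-KO1 and -0.11 for MLL1-KO2. The MLL1-KO lines were also apart on chromosome 4, with medians of -0.55 and -0.10 over its first 50 Mb and -0.05 and 0.36 beyond. On chromosome 12 the medians were 0.44 for MLL1-KO1 and -0.05 for MLL1-KO2 over its first 20 Mb. Between 20 and 40 Mb they were 0.42 and -0.05. Over the first 20 Mb, 22 of 75 genes were lower and 2 higher on chromosome 6, and 15 of 50 lower and 2 higher on chromosome X. Outside the stretches of chromosomes 7, 17, and 11, 9.6% of 12116 genes with a position were lower and 5.3% higher. The stretches were chosen after their values were seen.

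**Figure D5:**
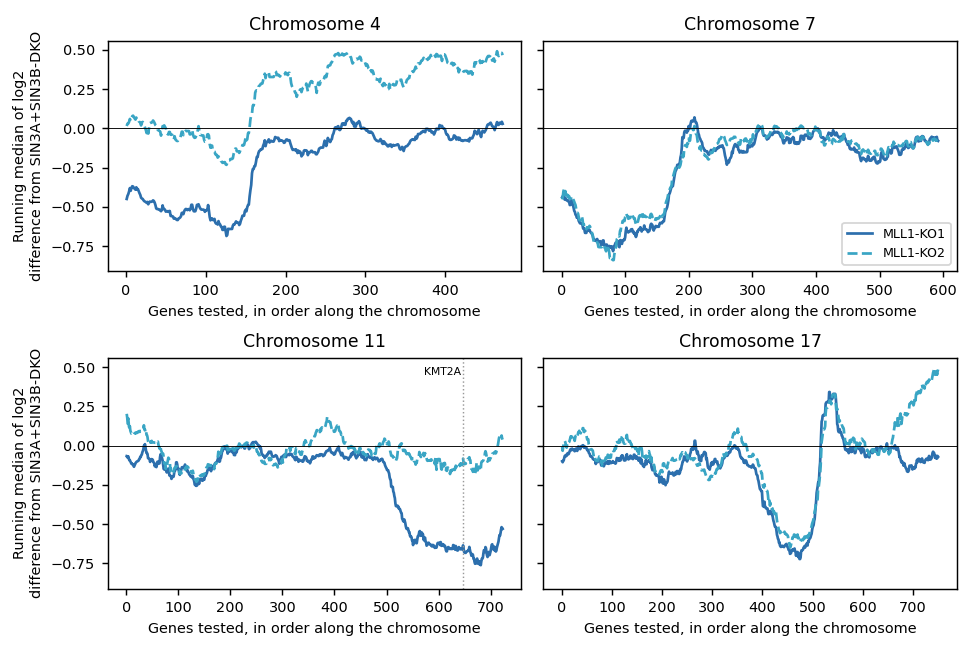
Running median over 51 neighbouring genes of the log2 difference of each MLL1-KO line from SIN3A+SIN3B-DKO, for tested genes in their order along chromosomes 4, 7, 11, and 17. The lines run together on chromosomes 7 and 17 where they dip below -0.5 and run apart on chromosome 4 and at the end of chromosome 11, where KMT2A lies (dotted line).

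With the running median subtracted from each library, 952 genes were lower and 828 higher (53.5% lower) among the genes with a position, against 1354 and 674 (66.8%) without subtraction over the same genes. On the chromosome 7 stretch 15 of the 89 genes remained lower and 24 were higher, against 13 before, and the lower genes held AGR2, of which the difference went from -5.65 to -4.89. By construction the subtraction also removes any difference that neighbouring genes share.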

How the data were processed

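Poly(A) RNA of 14 libraries had been sequenced, and per the submitters' processing notes FastQC 0.11.2, TopHat, featureCounts, and hg19 were used. The authors deposited 1 table of values named RPKM, which add up to 1000000 in each library and were therefore used as TPM. Whole reads were recovered for all 18519 genes above 0 (tolerance 0.02 reads), and the 8 libraries held 18415036 to 23162682. The gene annotation and the use of strand are not given in the sources used here.

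Testing took the genes that reached 1 TPM in 2 or more of the 8 libraries and used limma 3.58.1 in R 4.3.3 (lmFit, eBayes with trend) on log2(TPM + 0.5), with the edited line as a random block (correlation 0.675), Benjamini-Hochberg adjustment over the 13147 genes, and a minimum of 1.5-fold. Single lines were compared in a fit of line means, whose error is the spread between libraries of a line. The labels do not say that libraries were separate cultures, so p-values measure the spread between these lines and libraries, which may be technical. Positions came from GENCODE release 44 on GRCh37, and 28 gene names turned into dates were not named. The replicate numbers did not pair the libraries (correlation of deviations from -0.08 to 0.08 between lines). Intervals of counting error were not needed, and the limit at 0 reads was 3 reads per library.

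Genes named were the targeted genes, the 9 genes the study followed by RT-qPCR or ChIP, the 10 largest differences in each direction called in all 4 comparisons of single lines with a mean of at least 5 TPM, and up to 3 called members in each direction of each of the 31 gene lists. Some genes that this rule names are not reported here. Other members were named where a count was small or after their values were seen. The members and lists were chosen with earlier results of these data known. The fitting steps were run on simulated reads. These had line effects of equal spread for every line and no shifts along chromosomes, unlike the data here. The alternatives are given in the closing section.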

Additional observations from a re-analysis of the deposited data

Results flagged for a closer look

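In 10 of the 240 groups of 4 libraries examined over the named genes, 1 library stood far from the other 3, and chance gives about 1 in 20 such groups. The value given is the gap of that library to its nearest neighbour as a share of the group's range. The second library of SIN3A+SIN3B-DKO2 stood apart within SIN3A+SIN3B-DKO for KMT2A (0.885), EFNB2 (0.835), and ANLN (0.845), where it was the highest, and for CNN1 (0.871), CSF3 (0.903), and MMP14 (0.846), where it was the lowest. The first library of that line was the highest for PDGFB (0.837) and OCLN (0.859). Among MLL1-KO libraries, the first of MLL1-KO2 was the lowest for MFAP2 (0.834) and the first of MLL1-KO1 the highest for SC5DL (0.870).

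The lines of a genotype differed from each other at part of the named genes by limma's test at 1.5-fold or more. MLL1-KO1 was higher than MLL1-KO2, in log2 units, at PDGFB (0.67), LINC00261 (1.07), HOXB9 (1.04), EFNB2 (0.70), HES1 (0.79), INHBB (2.16), FST (0.88), LRP5 (1.49), IL6 (1.02), IL1B (2.18), OAS1 (1.28), COL6A3 (1.19), OCLN (1.01), KRT7 (1.11), DUSP1 (0.72), ATF3 (0.75), EGR3 (0.70), CA9 (1.77), and KRT8 (0.90). MLL1-KO1 was lower than MLL1-KO2 at KMT2A (-0.67), PDGFD (-0.94), RDX (-0.61), MYH10 (-1.23), NGFR (-2.15), FAM117A (-1.10), FAM83A (-0.90), BMP2 (-1.10), LGR6 (-1.02), ENG (-1.11), ISM1 (-0.68), TAGLN (-1.49), WNT5A (-1.11), LEF1 (-0.64), IL24 (-1.62), IFI27 (-1.47), TNC (-0.79), ITGA10 (-1.77), MMP14 (-0.62), CDKN1C (-0.80), CDKN1A (-0.76), and PFKFB3 (-0.62). SIN3A+SIN3B-DKO1 was higher than SIN3A+SIN3B-DKO2 at ACTG2 (0.76), APCDD1L (0.75), ENG (2.43), IL8 (0.64), GDF15 (1.32), IL1B (0.98), CLDN4 (2.09), ITGB3 (0.89), ITGA10 (0.64), CA9 (2.13), and NDRG1 (0.81), and lower at SLAMF7 (-1.54), HOXB9 (-0.95), and TGFBI (-1.61). Genes from many of the lists were thus apart between lines edited at the same gene, and the error of these differences is the spread between the 2 libraries of a line.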

How the results depend on the processing

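The counts moved by over 1.5 times with the fold minimum, with 677 lower and 371 higher genes at 2-fold and 2497 and 1281 with none, without the line SIN3A+SIN3B-DKO2 (894 lower), and without the line MLL1-KO1 (1180 higher). Leaving out 1 library each gave 1119 to 1368 lower and 610 to 703 higher genes. With the replicate number as a replicate block the counts were 1313 and 674 and no call of a named gene changed, and the numbers gave no pairing. With the means of the 4 lines as replicates, 2 against 2, they were 1018 and 533, and with limma voom on the recovered reads 1390 and 782. The fit over genes with a position only, 1354 and 674, was added after the data were seen. Of the 113 named genes called, 79 were called under every setting except the 2-fold minimum. SIN3B, not called, was called under 8 other settings, 2 of them other scalings. RDX and IPO13, neither called, changed sign, RDX to 0.14 without MLL1-KO1 and 0.22 with neighbours subtracted, and IPO13 to 0.01 with quantile normalization, 0.03 with median ratio scaling, and 0.01 without MLL1-KO1. The causes were not tested.

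Leaving out 1 library ended the call of 9 named genes. Without replicate 1 of SIN3A+SIN3B-DKO2 these were ATF3 (-1.21, adjusted p = 0.1), IL6 (-2.02, 0.052), WNT10B (-1.46, 0.066), and LOXL2 (-0.58, under 1.5-fold). PDGFD lost its call on leaving out any 1 of 7 libraries, with limma's adjusted p up to 0.09, CNN1 and EGR3 on leaving out any 1 of 4 (up to 0.12), CA9 on leaving out any 1 of 3 (up to 0.07), and CXCL1 on leaving out any 1 of 3 (up to 0.055). For genes of a few reads, such as CNN1, the depth limits the precision.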
